A study of Mus musculus with 5 samples.

Results

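At embryonic day 15.5, 32 of the 32793 genes in the count table had almost no transcript in control kidneys and were read in both kidney libraries with activated Notch1. They were selected on the counts themselves: at most 5 in each of the 3 NICD_wt libraries and at least 20 in each of the 2 NICD_mut libraries. Cxcl10 met both thresholds and was left out by name, together with other named genes and families (Cyp, Gst, Ugt and Col symbols), so 33 genes met the thresholds in all. The 32 genes belong to no single tissue. They include glutamate receptor and potassium channel genes of neurons, the lymphocyte recombinases Rag1 and Rag2, carboxylesterases, a lens crystallin and 10 transcripts known only by clone or model names.

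NICD_mut embryos carried the Six2TGC/+ driver, a transgene that makes Cre recombinase in nephron progenitors, with a RosaN1ICD∆PEST allele. Cre switches on from that allele an intracellular Notch1 that lacks the PEST domain through which it is normally degraded. NICD_wt embryos were littermates with the RosaN1ICD∆PEST allele and no Cre, so both groups carry the allele. What the driver does and what activated Notch1 does cannot be told apart here. Nothing in the labels ties a library to its own animal. RNA was taken from kidneys in bulk, so a higher count from more cells of a type and from more RNA per cell cannot be told apart.

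Notch is a cell-surface receptor that is cut on contact with a ligand on a neighbouring cell. Its intracellular part then enters the nucleus and acts with the DNA-binding protein Rbpj on target genes such as the Hes and Hey repressors. In the nephron, Notch signalling takes part in the choice of proximal fates as progenitors leave their pool. Genes with roles in other organs are usually not transcribed in kidney cells, and a bulk library also holds RNA of the vessels, nerves and blood cells of the organ.

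Libraries held 17361823 to 21356447 estimated counts. The groups carried their labels: Notch1 had 6132 and 6570 counts in the NICD_mut libraries and 2529, 3026 and 2089 in the NICD_wt libraries, and Six2, the nephron progenitor factor, had 7 and 6 against 2667, 3015 and 2411. Kidney markers Pax2, Pax8, Wt1, Lhx1 and Gata3 were present in every library, the lowest being 337 counts of Lhx1. NICD_mut 1 and, to a lesser degree, NICD_wt 1 stood apart in muscle RNA. In NICD_mut 1, skeletal muscle markers summed to 3730 CPM (counts scaled to library size), against 25.3 in NICD_mut 2 and 175, 22.1 and 24.2 in NICD_wt 1 to 3.

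Together the 32 genes gave 2398 and 2397 counts in NICD_mut 1 and 2, and 55, 67 and 74 in NICD_wt 1, 2 and 3. Of the 32, 13, 9 and 8 had no count in NICD_wt 1, 2 and 3, but only Nmur2, AF216290 and Cst12 had none in all 3 NICD_wt libraries. A further 7 genes had 1 to 3 counts over the NICD_wt libraries and 22 had more. All 32 passed the low-count filter and were called higher by the edgeR quasi-likelihood test, beside 23.0% of the 15885 tested genes called higher and 24.8% called lower. The thresholds force at least a 4-fold ratio of counts, so these calls carry no information about the genes and no p-value is given for them.

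**Figure D1:**
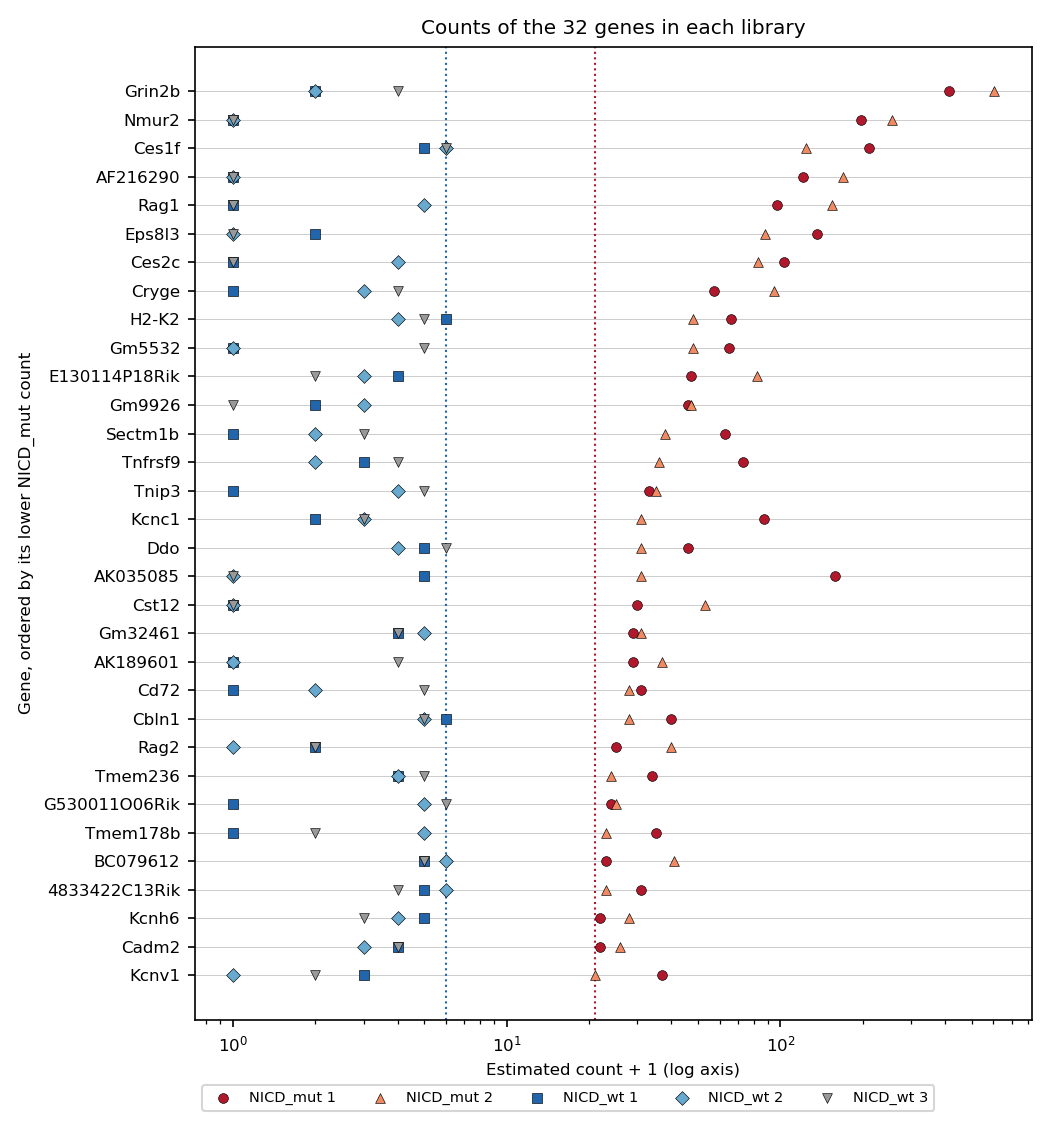
Estimated counts plus 1 (log axis) of the 32 genes in each of the 5 libraries, 1 row per gene, ordered by the lower NICD_mut count; dotted lines mark the thresholds of 5 and 20 counts. Grin2b reaches 412 and 602 counts in the NICD_mut libraries, and Kcnv1 lies on the threshold with 36 and 20; the gap between groups is set by the selection.

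Most of the genes were low in NICD_mut too. The lower of the NICD_mut values had a median of 1.43 TPM (a transcript abundance corrected for gene length and depth), against 12.51 over the 17963 genes above 0 in both NICD_mut libraries. It was at least 1 TPM for 22 of the 32 genes, at least 5 TPM for 5 and under 1 TPM for 10. In counts, 14 genes had fewer than 30 in their lower NICD_mut library, 14 had 30 to 99 and 4 had 100 or more. Those 4 were Grin2b, Nmur2, Ces1f and AF216290.

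Genes of neurons made up 7 of the 32, and summed to 811 and 986 counts in NICD_mut 1 and 2 and to 16, 12 and 15 in the NICD_wt libraries. Grin2b, which encodes the GluN2B subunit of the NMDA-type glutamate receptor, had the most counts of all 32 genes. It lies on chromosome 6 (mm10, chr6:135713233-136173511, minus strand) and had 412 and 602 counts in NICD_mut 1 and 2, against 1, 1 and 3 in NICD_wt 1, 2 and 3. Both NICD_mut libraries were above every NICD_wt library, as the selection requires, with a pooled ratio of 286-fold (95% counting interval 122 to 882). That interval covers counting error only. An NMDA receptor also needs the GluN1 subunit encoded by Grin1. Grin1 had 15 and 6 counts against 20, 11 and 11, and did not pass the test. Of the 4 tested relatives, Grin2d rose (202 and 139 counts against 63, 68 and 51; log2 fold change 1.40, SE 0.23, adjusted p = 0.00107 by edgeR's quasi-likelihood test) and so did Grin3a. Grin3b and Grin1 did not pass, and Grin2a and Grin2c were too low to test. Among all tested genes, 23.0% rose and 24.8% fell.

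Nmur2, a receptor for the neuropeptides neuromedin U and neuromedin S, was 1 of the 3 genes with no NICD_wt count. Its gene (chr11:56024987-56041010, minus strand) gave 196 counts in NICD_mut 1 and 255 in NICD_mut 2. Against 3 counts over the NICD_wt group, the limit that a count of 0 allows, it was at least 212-fold higher. Its TPM was 5.23 and 6.85. The ligand genes Nmu and Nms and the related receptor Nmur1 had 0 counts in every library.

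A set of 3 potassium channel genes met the thresholds. Kcnc1 encodes a Kv3-type channel of fast-firing neurons and had 86 and 30 counts against 1, 2 and 2 in NICD_wt. Kcnv1, a modifier subunit that forms no channel alone, had 36 and 20 against 2, 0 and 1. Kcnh6, of the ether-a-go-go-related family, had 21 and 27 against 4, 3 and 2. All 3 were under 1 TPM in both NICD_mut libraries. Kcnc1 lies 17397 bases from Myod1, a muscle determination gene, and is higher in NICD_mut 1, where Myod1 had 370 counts against 1 in NICD_mut 2; in NICD_wt Myod1 had 22, 1 and 1. Whether muscle RNA bears on the Kcnc1 count was not tested. Among the 10 tested relatives in the Kcnc, Kcnh and Kcnv families none rose, beside 23.0% of all tested genes, and 2 fell, beside 24.8%. The 2 that fell by edgeR were Kcnc2 (log2 fold change -1.49, SE 0.31, adjusted p = 0.00381) and Kcnh8 (log2 fold change -2.6, SE 0.77, adjusted p = 0.0205).

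The remaining neuronal genes act at the cell surface or synapse and were near the lower threshold. Cbln1, a secreted organiser of cerebellar synapses, had 39 and 27 counts against 5, 4 and 4. Of its 3 tested relatives Cbln2 rose, from 15, 21 and 15 to 91 and 64 (log2 fold change 2.09, SE 0.35, adjusted p = 0.00111 by edgeR). The other 2 did not pass: Cbln3 had 68 and 37 counts against 14, 29 and 22, and Cbln4 had 102 and 185 against 132, 148 and 94. Cadm2, a synaptic adhesion protein, had 21 and 25 against 3, 2 and 3 and the lowest TPM of the 32 genes, 0.18 and 0.22. The other Cadm genes moved in both directions: Cadm3 and Cadm4 rose by log2 values of 1.07 and 0.59, and Cadm1 fell by 1.19. For the relatives of Cbln1 and Cadm2 alike, the shares over all tested genes were 23.0% risen and 24.8% fallen.

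**Figure D2:**
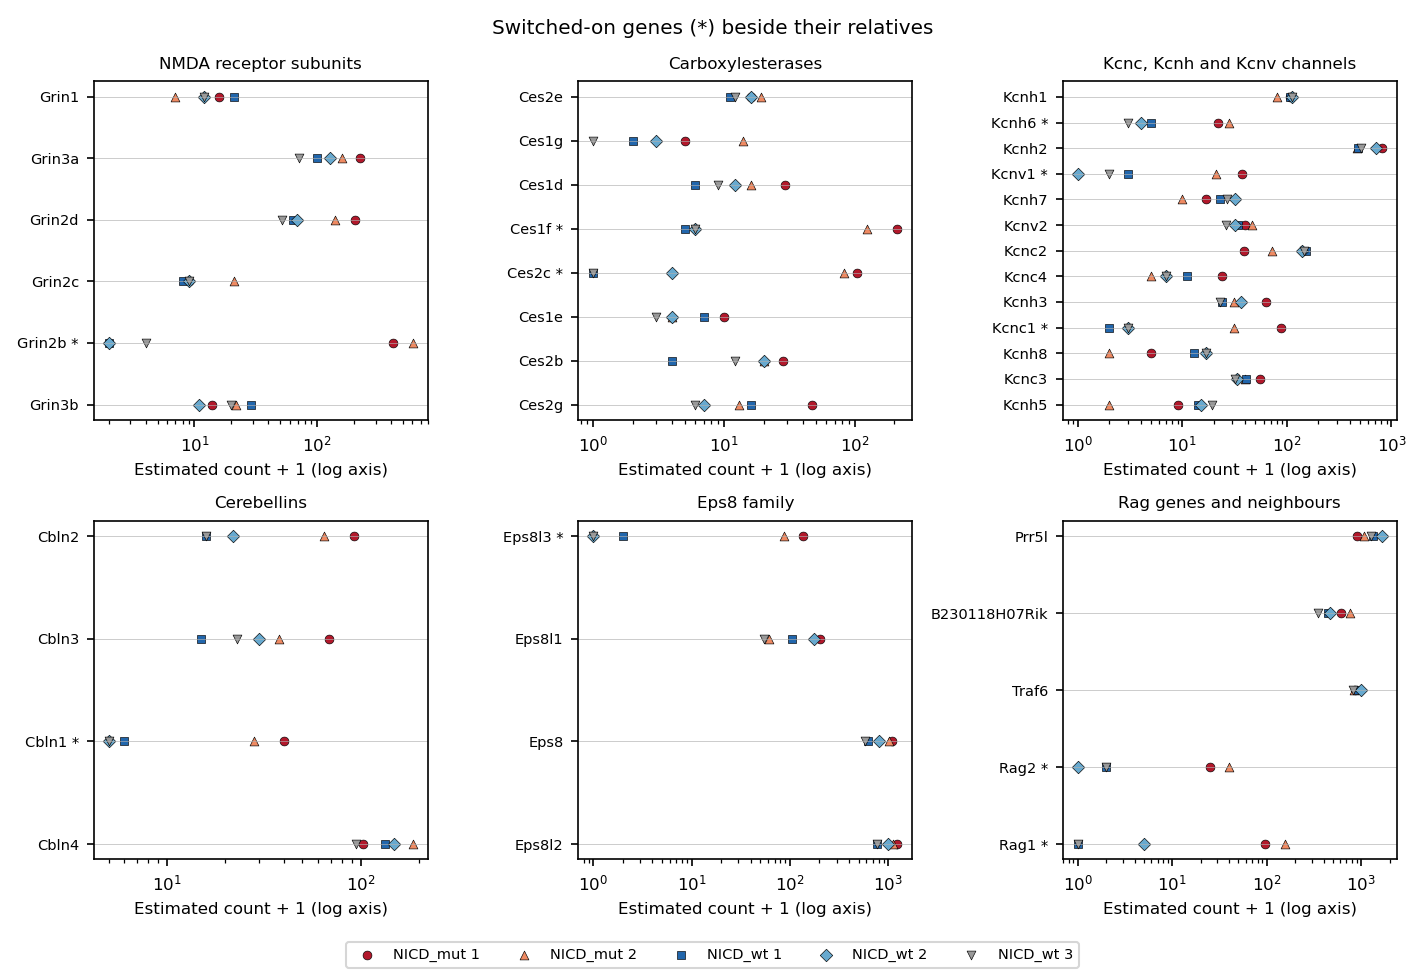
Estimated counts plus 1 (log axis) of genes of the set (asterisk) and of their relatives or neighbours in the 5 libraries, 6 families in separate panels. The gap between groups in genes of the set, such as Grin2b, Eps8l3, Rag1 and Rag2, is set by the selection. Relatives were not selected on these counts, and some, such as Grin1 with 6 to 20 counts in every library, overlap.

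Immune genes made up another 7, summing to 381 and 373 counts in NICD_mut 1 and 2 and to 8, 13 and 18 in the NICD_wt libraries. Rag1 and Rag2 encode the 2 parts of the recombinase that joins antigen receptor gene segments in developing lymphocytes. Rag1 had 96 and 154 counts in NICD_mut 1 and 2, against 0, 4 and 0 in NICD_wt, a pooled ratio of 88.1 (34.0 to 326). Rag2 had 24 and 39 counts against 1, 0 and 1, a ratio of 44.4 (11.8 to 375). They lie 5752 bases apart on chromosome 2, Rag2 at chr2:101624718-101632529 on the plus strand and Rag1 at chr2:101638282-101649501 on the minus strand, and are the only pair within 100 kb of each other among the 27 genes with a position. Both overlap the gene B230118H07Rik, which had 605 and 753 counts against 447, 469 and 351. It lies on the strand of Rag1 and opposite Rag2, and the share of their reads that belongs to it is not known.

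Of 6 genes known from lymphocytes that use the recombinase, chosen after the 32 genes were seen, Dntt, Pax5, Ptcra and Cd3e had at most 4 counts in any library. Il7r, the interleukin 7 receptor, had 23 and 4 counts against 15, 3 and 2 and did not pass. Ebf1, a B cell factor also made in other tissues, rose from 561, 590 and 443 to 922 and 919 counts (log2 fold change 0.71, SE 0.09, adjusted p = 0.000231 by edgeR). Dntt, which adds bases at the joins, was at 0 in both NICD_mut libraries and at 4, 0 and 1 counts in NICD_wt. Pax5, the B cell identity factor, had 1 and 0 counts against 0, 0 and 0. Of the list of T, B and natural killer lymphocyte genes 3 could be tested: Cd4 rose, Lck fell and Cd79b did not pass, and Cd3d, Cd3e and Ms4a1 had no count in any library. That list summed to 11.6 and 11.3 CPM in NICD_mut and 13.2, 15.2 and 12.6 in NICD_wt. Cd4, also made by macrophages, was not called higher when NICD_mut 1, or any 1 of the 3 NICD_wt libraries, was left out.

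The other immune genes had 27 to 72 counts in NICD_mut. Tnfrsf9, the costimulatory receptor 4-1BB of activated lymphocytes, had 72 and 35 counts against 2, 1 and 3. Its ligand gene Tnfsf9 had 39 and 23 against 77, 62 and 68. Cd72, a B cell coreceptor that macrophages also carry, had 30 and 27 against 0, 1 and 4. Tnip3, a partner of the NF-kB inhibitor A20, had 32 and 34 against 0, 3 and 4, and its relatives Tnip1 and Tnip2 rose by log2 values of 0.77 (SE 0.11) and 0.54 (SE 0.15). Sectm1b, a secreted and membrane protein of the SECTM1 family, had 62 and 37 against 0, 1 and 2.

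H2-K2 is a pseudogene of the class I histocompatibility family, and had 65 and 47 counts against 5, 3 and 4. The class I genes H2-K1 and H2-D1, which are much alike in sequence, rose by log2 values of 1.47 (SE 0.12, adjusted p = 3.13e-05) and 0.89 (SE 0.23, adjusted p = 0.035) by edgeR. Reads shared among such copies are split by estimation, so the H2-K2 value is uncertain. Macrophage and dendritic cell markers rose in 11 of 14 tested cases and fell in none. Over all tested genes 23.0% rose and 24.8% fell. The macrophage and dendritic cell markers summed to 326 and 272 CPM in NICD_mut against 112, 100 and 107 in NICD_wt. Their part in the immune counts above was not tested.

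**Figure D3:**
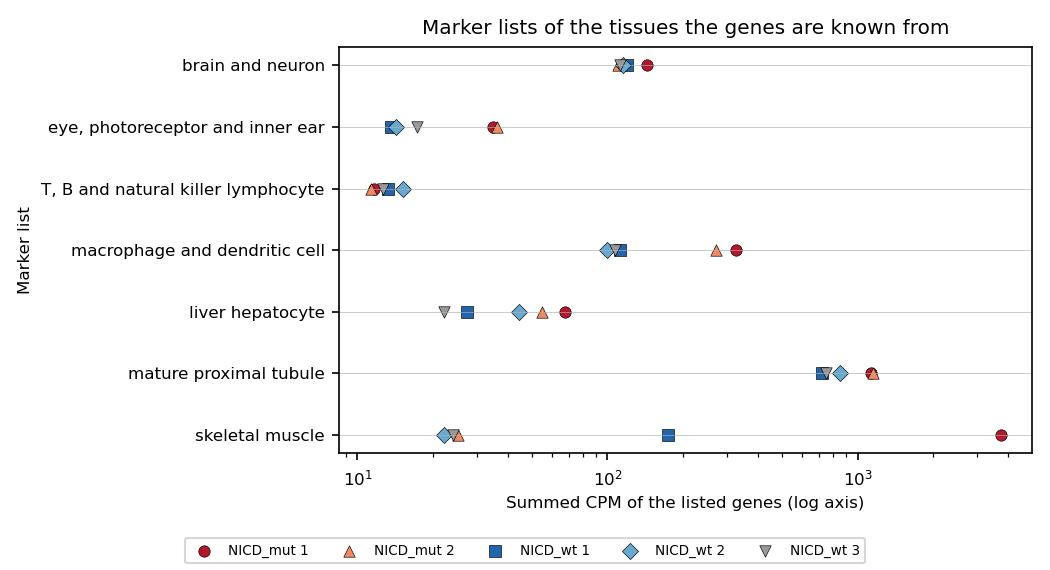
Summed CPM (log axis) of 7 marker lists in the 5 libraries; none of the 32 genes is in a list. Macrophage and dendritic cell markers separate the groups, brain markers overlap, lymphocyte markers are at 11.3 to 11.6 CPM in NICD_mut and 12.6 to 15.2 in NICD_wt, and skeletal muscle markers are highest in NICD_mut 1 at 3730 CPM and next in NICD_wt 1 at 175 CPM.

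Enzyme and brush border genes made up 4 of the set, with 491 and 322 counts against 9, 11 and 10. All 4 were higher in NICD_mut 1 than in NICD_mut 2. Ces1f, a carboxylesterase of the liver (chr8:93256236-93279747, minus strand), had 209 and 123 counts against 4, 5 and 5, and a TPM of 10.12 and 6.04. Ces2c (chr8:104847068-104854483, plus strand), of a carboxylesterase family made in liver, gut and kidney, had 102 and 82 counts against 0, 3 and 0. Carboxylesterase genes lie in clusters of similar copies, so single-gene values are uncertain. Of their 18 relatives only 4 were high enough to test and none passed, where 23.0% of all tested genes rose and 24.8% fell.

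Eps8l3, an actin-regulating relative of Eps8, showed the fewest NICD_wt counts among the genes that had any. It lies at chr3:107877229-107892900 on the plus strand and had 135 and 87 counts against 1, 0 and 0. The ratio was 313, with a wide counting interval of 55.6 to 12400. Its relatives Eps8 and Eps8l2 were plentiful in every library and rose by only 0.57 and 0.38 on the log2 scale, and Eps8l1 did not pass. Ddo, which degrades D-aspartate in peroxisomes, had 45 and 30 counts against 4, 3 and 5. Dao, the matching oxidase for other D-amino acids and a proximal tubule enzyme, had 1134 and 1369 against 592, 708 and 532. Mature proximal tubule markers rose in 13 and fell in 7 of 35 tested cases, and liver markers rose in 4 and fell in none of 11, where 23.0% of all tested genes rose and 24.8% fell. Without NICD_mut 1 only 2 of the liver markers rose and 1 fell, and without NICD_wt 1 or NICD_wt 3 again 2 rose.

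A lens gene and a cystatin were also present. Cryge, a gamma crystallin of the lens (chr1:65048554-65051149, minus strand), had 56 and 94 counts against 0, 2 and 3, and at 11.57 and 20.74 TPM it was among the highest of the set per length. Of 15 other crystallin genes 12 were too low to test, Crybb1 and Crybb3 did not pass, and 1 passed: the small heat shock protein gene Cryab rose from 211, 213 and 156 to 1159 and 727 counts (log2 fold change 2.19, SE 0.18, adjusted p = 6.38e-05 by edgeR). The list of eye and inner ear markers had 9 genes with no count in any library. Where 23.0% of all tested genes rose, Myo7a and Otof rose of the 4 markers tested. Only 1 rose without NICD_mut 1, NICD_wt 1 or NICD_wt 3. Cst12, of the cystatin family of protease inhibitors, had 29 and 52 counts and none in NICD_wt, at least 38.1-fold higher (chr2:148789361-148793546, plus strand).

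Tmem236 and Tmem178b are membrane proteins with little described function. Tmem236 had 33 and 23 counts against 3, 3 and 4, and lies 7398 bases from the macrophage receptor gene Mrc1, which rose from 331, 338 and 248 to 1111 and 777. Tmem178b had 34 and 22 against 0, 4 and 1.

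The other 10 genes are clone-named or uncharacterised transcripts, summing to 563 and 525 counts in NICD_mut 1 and 2 and to 19, 22 and 23 in the NICD_wt libraries. AF216290 was the most counted, at 120 and 169 with none in NICD_wt, which is at least 136-fold higher. AK035085 had 157 and 30 against 4, 0 and 0. AK189601 had only 28 and 36 counts, but the highest TPM of the set, 15.09 and 23.93. These 3 and BC079612 (22 and 40 against 4, 5 and 4) were matched in neither annotation used, so their position is not given.

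Long non-coding RNAs made up the remaining 6 of these, by RefSeq type. E130114P18Rik, with 46 and 81 counts against 3, 2 and 1, is typed as protein coding in GENCODE and overlaps Nfia on the other strand. Nfia rose from 826, 949 and 676 to 2043 and 2062 counts. The share of the E130114P18Rik reads that belongs to Nfia is not known. Gm5532 had 64 and 47 against 0, 0 and 4, and Gm9926 had 45 and 46 against 1, 2 and 0. Gm32461, G530011O06Rik and 4833422C13Rik had 22 to 30 counts in NICD_mut and at most 5 in NICD_wt. Across the whole set, RefSeq listed 21 protein-coding genes, 6 long non-coding RNAs and 1 pseudogene. The 27 genes found in the GENCODE annotation lay on 14 chromosomes. Of these, 13 overlapped a gene on the other strand and 5 overlapped one on the same strand. Shares over all genes are not given.

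Promoters were read for the 22 genes that had one in the RefSeq table (GRCm38.p6), from 250 bases before to 50 after the start. The letters TGGGAA, the core that Rbpj binds, were found on either strand in 7 of 22 (31.8%), against 25.5% of all 27025 genes with a promoter. The longer GTGGGAA, which contains it, was found in 3 of 22 (13.6%) against 6.39%, in E130114P18Rik, Gm32461 and Rag1. In the 250 bases before the start alone, TGGGAA was found in 22.7% against 21.5%, and GTGGGAA in 9.09% (2 of 22) against 5.41%. Among tested genes the shares over the whole window were 23.3% and 6.17%. TATAAA, the TATA box letters, was found in 3 of 22 (13.6%) against 14.2% of all and 7.3% of the 11758 tested genes with a promoter. CAAAGT, from the hepatocyte nuclear factor 4 site, was found in 3 of 22 (13.6%) against 14.3%, and the longer CAAAGTCCA in none against 0.477%. These are matches of letters and no measure of binding. Stretches of 30 bases around the 3 GTGGGAA matches are given 5′ to 3′ on the gene's strand, to show the bases beside the core, with TGGGAA or its complement TTCCCA in capitals. They lie at chr2:101649567-101649596 for Rag1, chr16:86806729-86806758 for Gm32461 and chr4:97584575-97584604 for E130114P18Rik.
Rag1: ggtgtgggagagTGGGAAgggcagtgagag
Gm32461: ttgttagccaagTGGGAAgccctggaatca
E130114P18Rik: ccaagccggaggTTCCCActatgagcctgg
The capitals begin at position -52 in Rag1, -233 in Gm32461 and -1 in E130114P18Rik, with -1 the last base before the start. These are RefSeq starts. In GENCODE, E130114P18Rik spans chr4:97568133-97778078 on the minus strand, so its RefSeq start used here lies inside the GENCODE gene.

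The 250 bases before the starts of Rag1 and Rag2, neighbours that were both read in NICD_mut, and of Nmur2, the most counted gene with no NICD_wt count, are given in the same way. They are chr2:101649533-101649782 (minus strand), chr2:101624462-101624711 (plus strand) and chr11:56040988-56041237 (minus strand).
Rag1: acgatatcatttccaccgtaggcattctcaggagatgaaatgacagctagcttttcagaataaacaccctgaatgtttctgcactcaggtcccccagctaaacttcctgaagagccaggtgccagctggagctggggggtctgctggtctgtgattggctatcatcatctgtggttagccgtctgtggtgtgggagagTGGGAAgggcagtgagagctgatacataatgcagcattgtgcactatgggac
Rag2: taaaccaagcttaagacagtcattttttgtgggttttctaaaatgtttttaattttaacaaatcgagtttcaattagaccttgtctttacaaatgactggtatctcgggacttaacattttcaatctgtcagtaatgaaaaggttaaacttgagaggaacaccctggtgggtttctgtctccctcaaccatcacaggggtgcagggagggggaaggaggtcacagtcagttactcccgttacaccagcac
Nmur2: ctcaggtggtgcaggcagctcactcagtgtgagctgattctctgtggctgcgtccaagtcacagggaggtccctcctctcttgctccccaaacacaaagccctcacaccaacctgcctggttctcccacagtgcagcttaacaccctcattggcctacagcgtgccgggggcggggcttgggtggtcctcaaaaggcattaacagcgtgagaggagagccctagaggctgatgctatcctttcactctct
TGGGAA occurs once in the Rag1 stretch, in capitals, and in neither of the others.

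The likeness of the NICD_mut libraries was measured in the level of each gene, since the selection requires every gene to be read in both. With counts scaled to CPM, the ratio of NICD_mut 1 over NICD_mut 2 had a median of 0.991, with 16 genes higher in each library. It lay within 2-fold for 30 of 32 genes (93.8%, exact Clopper-Pearson 95% interval 79.2 to 99.2%) and within 1.5-fold for 19 (59.4%). Across genes the log2 CPM values had a Pearson r of 0.784 and a Spearman rho of 0.634. The interval above treats genes as independent, but they share the libraries and are not independent replicates. Other genes with at least 20 counts in both NICD_mut libraries and no more than the 602 counts of Grin2b, 6420 in number, lay within 2-fold in 94.6% and within 1.5-fold in 85.5% of cases. In that comparison group the Pearson r was 0.928 and the Spearman rho 0.936. The group was chosen after the values were seen, and its counts are not matched to those of the 32 genes.

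For 15 of the 32 genes the 95% counting interval of the ratio left out 1, with 6 higher in NICD_mut 1 and 9 higher in NICD_mut 2. AK035085 differed most, at 4.98 (3.35 to 7.62), followed by Kcnc1 at 2.73 (1.78 to 4.28) and Tnfrsf9 at 1.96 (1.29 to 3.02). Kcnv1 at 1.71 (0.965 to 3.12) and Ces1f at 1.62 (1.29 to 2.04) came next. At the other end were BC079612 at 0.523, Cst12 at 0.53, E130114P18Rik at 0.54, Cryge at 0.566 and Rag2 at 0.585. Rag1 had nearly the same ratio as Rag2, 0.593. Grin2b at 0.651 (0.573 to 0.739), AF216290 and Nmur2 were likewise higher in NICD_mut 2. These intervals cover counting error only, so they do not include differences between embryos.

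**Figure D4:**
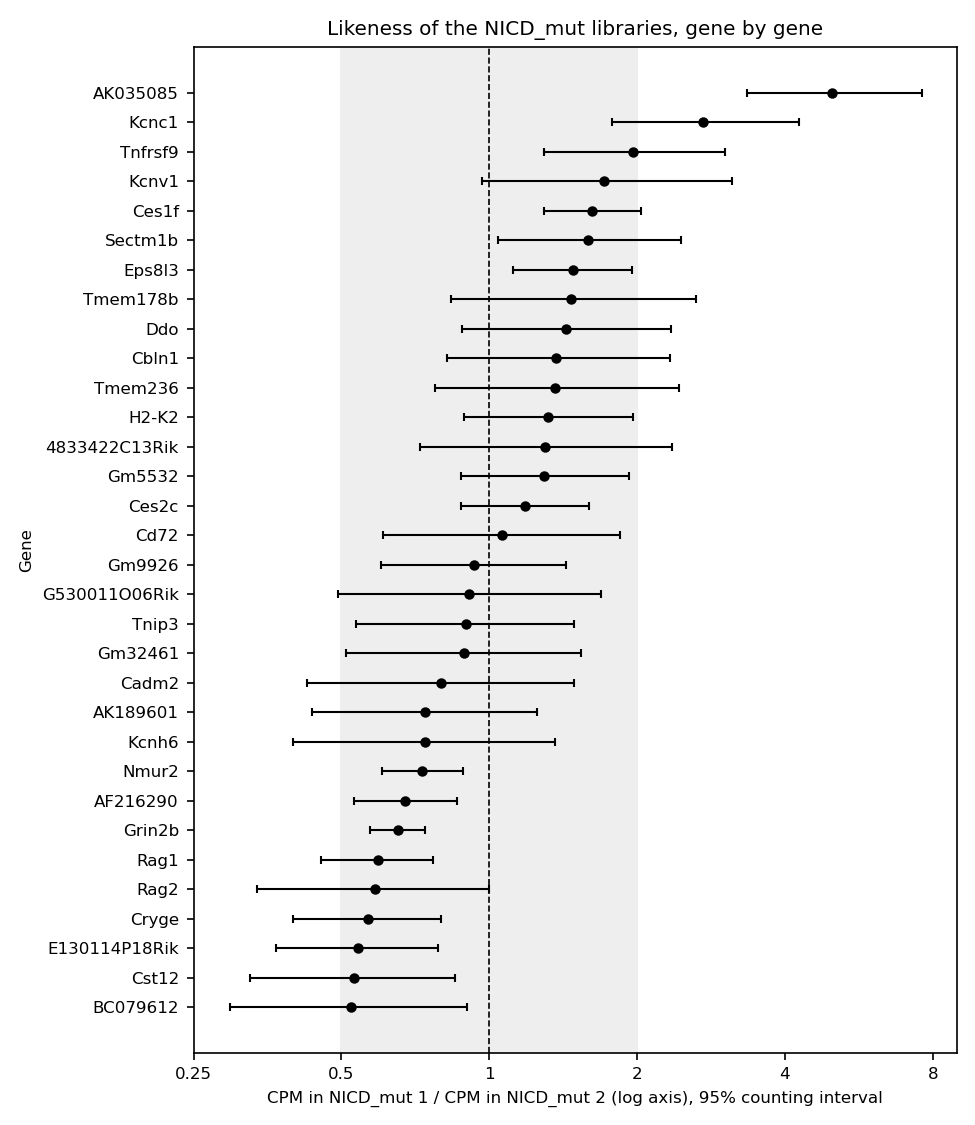
Ratio of CPM in NICD_mut 1 over NICD_mut 2 for each of the 32 genes (points, log axis) with 95% counting intervals (bars); the grey band marks 2-fold either way and the dashed line a ratio of 1. Only AK035085 (4.98) and Kcnc1 (2.73) lie outside the band.

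The thresholds met in both libraries were met far more often in NICD_mut 1 alone. NICD_mut 1 had 115 genes that met them, of which 27.8% were among the 32, and NICD_mut 2 had 48, of which 66.7% were. Of the 83 genes that met them in NICD_mut 1 and not in NICD_mut 2, 56 had 5 or fewer counts in NICD_mut 2. Named after their values were seen, they include muscle genes: Mstn, the muscle growth inhibitor, had 91 counts in NICD_mut 1 and 0 in NICD_mut 2, and Ckmt2, the mitochondrial creatine kinase of muscle, had 79 and 0. Of the 16 genes that met them in NICD_mut 2 alone, 5 had 5 or fewer counts in NICD_mut 1. Among these were the lung genes Sftpc, with 22 counts in NICD_mut 2 and 1 in NICD_mut 1, and Scgb1a1, with 35 and 0.

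Other gene lists showed where the set sits among markers of its tissues. Brain and neuron markers rose in 7 and fell in 2 of 17 tested cases, where 23.0% of all tested genes rose and 24.8% fell, and summed to 144 and 110 CPM in NICD_mut against 120, 115 and 112 in NICD_wt. Tubb3 and Gria2 were among those that rose, at 112 and 52 counts against 19, 32 and 31 and at 63 and 56 against 13, 17 and 21; Elavl4 and Slc32a1 fell. Only 2 rose and 4 fell without NICD_mut 1, and 4 rose without any 1 of the NICD_wt libraries. Peripheral glia and neural crest markers rose in 7 and fell in 1 of 11 tested cases, with summed levels of 180 and 107 CPM in NICD_mut and 119, 114 and 110 in NICD_wt. Sox10, the neural crest and glia factor, had 100 and 57 counts against 14, 32 and 8, and Dbh, which makes noradrenaline in sympathetic cells, had 74 and 28 against 6, 1 and 7. Only 3 of these markers rose without NICD_mut 1, and 4 without any 1 of the NICD_wt libraries. Their part in the counts of the neuronal genes was not tested.

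Notch target genes rose in 5 and fell in 4 of 15 tested cases, shares near the 23.0% and 24.8% of all tested genes, and without NICD_mut 1, 8 rose. Hey2 and Heyl rose by log2 values of 1.44 (SE 0.15) and 1.38 (SE 0.15), Hes1 did not pass, and Hes5 fell by 3.82 (SE 0.30).

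The edges of the selection were narrow in counts. Just inside, with 5 counts in a NICD_wt library or 20 or 21 in a NICD_mut library, were 10 genes, among them Cbln1 (39 and 27 against 5, 4 and 4), Ddo, Cadm2, Ces1f, BC079612 and 4833422C13Rik. Just outside were 10 genes. Car10 had 114 and 83 counts against 5, 6 and 4, and Adtrp had 21 and 22 against 5, 6 and 2. C7 had 26 and 23 against 6, 1 and 1, and Gm8773 had 29 and 20 against 2, 6 and 2. AA467197 had 19 and 47 against 0, 1 and 0, and Gm16551 had 18 and 41 against 5, 0 and 0. Each of these 6 missed a threshold by 1 or 2 counts.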

How the data were processed

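RNA from kidneys was sequenced in bulk in 2 NICD_mut and 3 NICD_wt libraries. The authors deposited estimated counts per gene, all whole numbers, and TPM. RSEM, Bowtie2 and mm10 are named per the submitters' processing notes. Versions, annotation and strandedness: not given in the sources used here.

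Genes were selected on the counts of all 5 libraries, with the named genes left out. Members, gene lists, roles and relatives were chosen with earlier results of these data known. Genes were filtered with filterByExpr (minimum count 10, minimum total 15), scaled by TMM (factors 0.9964 to 1.0054) and tested with the edgeR 4.0.16 quasi-likelihood test in R 4.3.3, NICD_mut against NICD_wt, with Benjamini-Hochberg adjustment over 15885 genes and a threshold of 0.05. Some genes are not reported here. The p-values measure only the spread between these libraries, which may be technical. Log2 fold changes were computed from the deposited counts and, as alternatives, by limma 3.58.1 on log2 of the deposited TPM plus 1 or 0.1. DESeq2 1.42.0, a replicate block and each library left out were also tried. Counting intervals are 95% and, like bounds from 3 counts, cover counting error only. Ratios of groups pool their counts per total. Coordinates are 1-based, from GENCODE M21 (mm10). Genes named are the members with a standard symbol, the 5 highest and 5 lowest ratios of the NICD_mut libraries, members with no NICD_wt count, channel genes that share a symbol root, neighbours within 100 kb, and up to 6 genes on each side of the thresholds, in alphabetical order. Other members, relatives and list genes were named after their values were seen.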

Additional observations from a re-analysis of the deposited data

How the results depend on the processing

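The number of genes selected followed the thresholds. It was 3, 9 and 71 with NICD_wt maxima of 0, 2 and 10 counts, and 77 and 8 with NICD_mut minima of 10 and 50 counts. It was 24 on counts scaled to the mean library size and 29 by TPM, of which 11 were among the 32. Leaving out 1 library gave 37 to 115 genes, the highest without NICD_mut 2. Among the 8 genes with at least 50 counts in both NICD_mut libraries, 100% lay within 2-fold. Only 4 of these 8 lay within 1.5-fold, against 19 of all 32. Over all genes, 2797 to 3843 were called higher and 3101 to 4207 lower when 1 library was left out. By limma on log2(TPM + 1) without a filter, 2606 were called lower in place of 3934. The gene lists held 103 genes called higher and 27 called lower, 81 to 119 and 20 to 34 with 1 library left out. Of 376 refitted log2 fold changes of the 32 genes, whose direction the selection fixes, 103 moved by more than 1 SE and 8 more could not be fitted. That of AK035085 went from 5.9 to 4.32 without NICD_mut 1 and to 9.48 without NICD_wt 1.

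With the replicate number as a block, 2654 genes were called higher and 2881 lower, and in the lists 87 and 24. Under the block, liver markers called higher went from 4 to 2, brain markers from 7 to 3, and peripheral glia and neural crest markers from 7 to 2. Same-numbered libraries of the groups correlated at 0.340 and 0.149 in their deviations, and with 2 pairs the libraries share only a number.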

Other observations

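The same thresholds applied the other way, at least 20 counts in each NICD_wt library and at most 5 in each NICD_mut library, selected 46 genes. They include a channel, a transcription factor and a growth factor of the nephron. Kcnj1, the potassium channel of the loop of Henle and collecting duct, was at 5 and 0 counts in the NICD_mut libraries and at 431, 530 and 374 in the NICD_wt libraries. Foxi1, the intercalated cell factor, had 3 and 4 against 308, 427 and 315. Fgf8, a growth factor of early nephrons, had 4 and 1 against 149, 167 and 151. The genes were chosen by these counts, so no test is given, and those named were picked after their values were seen.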
